A study of Mus musculus with 6 samples.

Results

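The acute-phase genes Saa3, Serpina3f, Serpina3g, Serpina3n, Lcn2 and Hp were followed, out of 55487 genes counted in RNA from cells of mouse hearts. They are a fixed list of 6 gene symbols, and all 6 were found in the count tables. The genes were chosen by their levels in KO and WT as read from earlier results of these data, so the levels below describe that comparison. The calls counted for them further down are a description too, and support nothing. Each of 6 libraries came from non-myocyte cells of 5 to 6 pooled hearts, enriched with magnetic beads for the myeloid surface integrin Cd11b. There were 3 pools of C57BL/6 Egfr f/f mice, in which the epidermal growth factor receptor gene is flanked by recombination sites but intact (WT), and 3 pools with Egfr removed in myeloid cells (EGFR -/-, myeloid-specific, KO). The age and treatment of the animals, the driver of the deletion and the purity of the bead fraction are not given here. The comparison sets KO against WT in this preparation. The KO pools also had almost no Lyz2 RNA, as given below.

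Acute-phase proteins are secreted in large amounts during infection or injury. Their genes are classically switched on by interleukin-6, acting through STAT3 and C/EBP factors, and by interleukin-1, acting through NF-kB. Saa3 is the serum amyloid A made outside the liver, mainly by macrophages, adipocytes and epithelia, and it binds lipid and attracts leukocytes. The Serpina3 genes are the mouse counterparts of human alpha-1-antichymotrypsin, a serine protease inhibitor. They multiplied in mice into a cluster, with Serpina3n as the broadly expressed member and Serpina3g as an inhibitor that also acts on cathepsins inside cells. Lcn2 encodes lipocalin-2, which starves bacteria of iron by binding their siderophores. Hp encodes haptoglobin, which captures free haemoglobin. Lipocalin-2 and haptoglobin are also stored in the granules of neutrophils.

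Positions are on GRCm38 with the GENCODE M21 annotation. Saa3 (ENSMUSG00000040026) lies on chromosome 7 at 46711998 to 46715700 on the minus strand. Serpina3f (ENSMUSG00000066363, 104214544 to 104221129), Serpina3g (ENSMUSG00000041481, 104236245 to 104241939) and Serpina3n (ENSMUSG00000021091, 104406729 to 104414329) lie on the plus strand of chromosome 12. Lcn2 (ENSMUSG00000026822) lies on chromosome 2 at 32384633 to 32388252 and Hp (ENSMUSG00000031722) on chromosome 8 at 109575128 to 109579172, both on the minus strand. All 6 are protein-coding, and no other annotated gene overlaps any of them.

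The 250 bases before the start site are printed for the 4 members whose levels are compared most closely below and for Serpina3i, a neighbour in the cluster. They are shown because Saa3, Serpina3f, Serpina3g and Serpina3i were high in the same pools while Serpina3n was not. The sequences are from RefSeq (GRCm38.p6) and read 5′ to 3′ on the strand of the gene. Capitals mark matches to a C/EBP motif (TTNNGCAA), a STAT motif (TTCNNNGAA) or the kappaB consensus, searched on both strands.
Saa3: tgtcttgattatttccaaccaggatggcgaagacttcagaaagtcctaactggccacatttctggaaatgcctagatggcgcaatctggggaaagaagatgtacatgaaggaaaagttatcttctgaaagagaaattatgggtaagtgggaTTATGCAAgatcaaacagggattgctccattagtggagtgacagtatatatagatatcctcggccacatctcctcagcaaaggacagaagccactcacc
Serpina3f: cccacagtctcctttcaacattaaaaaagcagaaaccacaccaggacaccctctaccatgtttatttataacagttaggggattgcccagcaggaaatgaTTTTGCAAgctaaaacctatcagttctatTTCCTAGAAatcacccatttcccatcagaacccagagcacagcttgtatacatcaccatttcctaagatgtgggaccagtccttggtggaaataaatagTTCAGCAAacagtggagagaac
Serpina3g: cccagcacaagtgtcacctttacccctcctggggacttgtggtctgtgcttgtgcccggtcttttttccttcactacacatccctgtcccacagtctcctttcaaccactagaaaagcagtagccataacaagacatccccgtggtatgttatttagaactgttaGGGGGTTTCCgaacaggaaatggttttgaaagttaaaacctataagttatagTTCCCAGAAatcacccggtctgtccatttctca
Serpina3i: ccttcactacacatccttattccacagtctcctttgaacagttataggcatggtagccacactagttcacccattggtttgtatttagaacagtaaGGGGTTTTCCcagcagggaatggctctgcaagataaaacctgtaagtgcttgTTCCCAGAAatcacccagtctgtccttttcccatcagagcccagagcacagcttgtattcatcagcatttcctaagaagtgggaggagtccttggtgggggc
Serpina3n: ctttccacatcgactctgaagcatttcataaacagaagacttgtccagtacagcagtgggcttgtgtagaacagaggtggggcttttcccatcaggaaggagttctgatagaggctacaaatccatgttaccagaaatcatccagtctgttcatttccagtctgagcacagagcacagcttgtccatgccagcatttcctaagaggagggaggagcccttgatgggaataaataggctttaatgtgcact
The windows are chr7:46715677-46715926 (minus strand) for Saa3, chr12:104214294-104214543 for Serpina3f, chr12:104235897-104236146 for Serpina3g, chr12:104262872-104263121 for Serpina3i and chr12:104406458-104406707 for Serpina3n, the last 4 on the plus strand. RefSeq gives Serpina3f another start further downstream, whose window holds the same matches.

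The Saa3 window holds 1 C/EBP match, TTATGCAA, from 99 to 92 bases before the start. Serpina3f holds 2 C/EBP matches and the STAT match TTCCTAGAA. Serpina3g and Serpina3i both hold the STAT match TTCCCAGAA and a kappaB match, GGGGGTTTCC and GGGGTTTTCC respectively. The Serpina3n window holds none of the 3 motifs, and that of Lcn2 holds 1 C/EBP match. No matches overlap within a window. Among 32851 promoter windows of the same length, 9.56% hold the C/EBP motif, 7.02% the STAT motif and 3.9% the kappaB consensus. In local alignments, Serpina3f was 82.6% identical to Serpina3g over 144 bases and 82.7% to Serpina3i over 214 bases, and 71.2% identical to Serpina3n over 219 bases. Of the 6 members, 5 had a promoter sequence among those used here, and Hp had none. No window was available for the neighbour Serpina3h either. Whether these motifs bear on the levels was not tested.

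The libraries held 17780707 to 27485129 reads in genes. Egfr, the targeted gene, was at 54.7, 43 and 44.7 CPM (reads of the gene scaled to the library's TMM-adjusted total of reads in genes) in WT against 18.5, 15.9 and 17.4 CPM in KO, with no overlap. A gene count sums all exons and so includes transcripts that lack a deleted part. WT pool 1 stood apart: by a chi-square per degree of freedom its distance from the KO pools (41.3 to 58.5) was smaller than that from WT pools 2 and 3 (76.9 and 84.1), and its summed haemoglobin and Alas2 level of 1880 CPM compared with 36.2 to 142 CPM elsewhere. The Y-linked gene Ddx3y was at 138 CPM in WT pool 1 and 136 CPM in KO pool 1 and between 0.0466 and 0.313 CPM in the other 4 pools. The labels give no sex. In edgeR's quasi-likelihood test with Benjamini-Hochberg adjustment, 2 of 15707 genes passed an adjusted p of 0.05 (0.0127%), namely Egfr and the lysozyme gene Lyz2, both lower in KO. Lyz2 was at 5030 ± 1450 CPM in WT against 18.6 ± 1.06 CPM in KO. Its log2 fold change was -8.08, against -1.46 for Egfr. Effects of the Egfr loss and of the Lyz2 loss cannot be told apart here. Every KO pool lay above every WT pool for 9.59% of genes and below for 10.1%. These libraries are bulk RNA, in which fewer cells of a type and less RNA per cell cannot be told apart.

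The 6 members fell into 3 patterns. Saa3, Serpina3f and Serpina3g were higher in every KO pool than in any WT pool. Serpina3n lay lower in 2 of the 3 KO pools than in any WT pool. Lcn2 and Hp were high in WT pool 1 and KO pool 1 and did not separate the genotypes. These are also the pools with high Ddx3y.

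**Figure D1:**
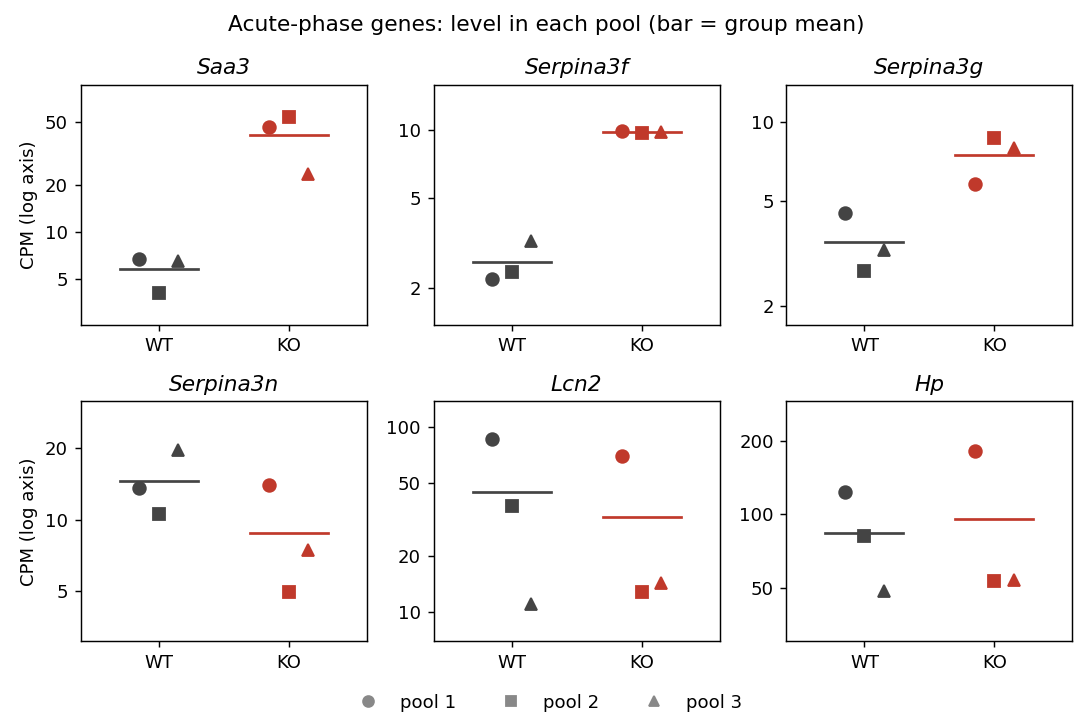
Level of each of the 6 genes in CPM (log axis) in the 3 WT and 3 KO pools, with the marker shape giving the pool number and the bar the group mean. The genotypes do not overlap for Saa3, Serpina3f and Serpina3g, and pool 1 of either genotype is the highest for Lcn2 and Hp.

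Saa3 was at 6.77, 4.12 and 6.52 CPM in the WT pools and at 46.9, 54.1 and 23.3 CPM in the KO pools. The lowest KO pool was KO pool 3, which still lay above every WT pool. The means were 5.8 ± 1.46 CPM in WT against 41.4 ± 16.1 CPM in KO (SD, n = 3 each), a ratio of 7.13, and the fitted log2 fold change was 2.83 (SE 0.34). This rests on 79 to 176 reads per WT library and 599 to 1377 per KO library. None of the other serum amyloid genes beside Saa3 had enough reads to be tested. Saa1 had 0 to 1 read per WT library and 3 to 5 per KO library, Saa2 had at most 4 in any library, and Saa4 had 0 in all. Saa1 and Saa2 are the forms that the liver releases into plasma. In windows of 100 bases, no part of a Saa3 transcript also occurred in a transcript of another gene, whereas 8.96% of the windows of Saa1 were shared with Saa2. In windows of 50 bases, 3.57% of Saa3 and 31.5% of Saa1 also occurred in another gene. The 12 other tested genes within 500 kb on either side of Saa3 had log2 fold changes between -0.15 and 0.30.

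Serpina3f had the narrowest spread of the 6 genes. Its level was 2.19, 2.35 and 3.21 CPM in WT against 9.89, 9.66 and 9.82 CPM in KO. All 3 KO pools lay close together and above the WT pools. The means were 2.58 ± 0.55 CPM in WT against 9.79 ± 0.118 CPM in KO, a ratio of 3.79 and a log2 fold change of 1.92 (SE 0.21). Serpina3g was at 4.5, 2.71 and 3.26 CPM in WT against 5.84, 8.68 and 7.96 CPM in KO. Its groups were closer, since KO pool 1 and WT pool 1 differed by less than the range within either genotype. The log2 fold change of Serpina3g was 1.10 (SE 0.26), with means of 3.49 ± 0.918 and 7.49 ± 1.47 CPM.

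Serpina3h and Serpina3i, which follow Serpina3g directly in the chromosome 12 cluster, were scarce in WT and counted in every KO pool. Serpina3h, annotated as a transcribed pseudogene, had 4, 7 and 9 reads in the WT libraries and 112, 32 and 85 in the KO libraries. Serpina3i, a protein-coding gene, had 3, 0 and 2 reads in WT and 58, 33 and 58 in KO. Reads of each gene were summed within each genotype and scaled to the summed TMM-adjusted library totals. The resulting ratio of KO to WT was 9.86 for Serpina3h (95% interval 6.24 to 16.4) and 25.7 for Serpina3i (95% interval 10.8 to 80.2). These intervals are exact for the reads counted and cover counting error only. Their log2 fold changes were 3.24 (SE 0.59) and 4.61 (SE 0.65), and neither passed over all genes (edgeR adjusted p = 0.153 and 0.135). DESeq2 called both (adjusted p = 7.75e-05 and 5.14e-06), as did edgeR without WT pool 1 (adjusted p = 0.0358 and 0.0176). Both genes passed the filter on low counts only through the KO libraries, where they are high, so these p-values and intervals are no support for the difference. Because copies of the family are alike, reads from shared stretches may have gone to no gene. Whether some of the counted reads belong to a neighbour is not known. In windows of 100 bases, 3.4% of Serpina3f, 3.49% of Serpina3g, 3.6% of Serpina3h and 2.25% of Serpina3i also occurred in another gene, and in windows of 50 bases 10.6%, 15.5%, 21.9% and 15.9%. The read length is not given in the sources used here.

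The rest of the cluster was nearly silent or did not separate the genotypes. Serpina3b, Serpina3j and Serpina3m had 0 reads in all 6 libraries, Serpina3a had 1 read and Serpina3k 2 reads in 1 library each. Serpina3c had 5 to 10 reads per WT library and 3 to 16 per KO library. Beyond the cluster, the 2 tested genes within 500 kb were Dicer1, which encodes the miRNA-processing enzyme, with a log2 fold change of -0.07, and Clmn with -0.70.

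**Figure D2:**
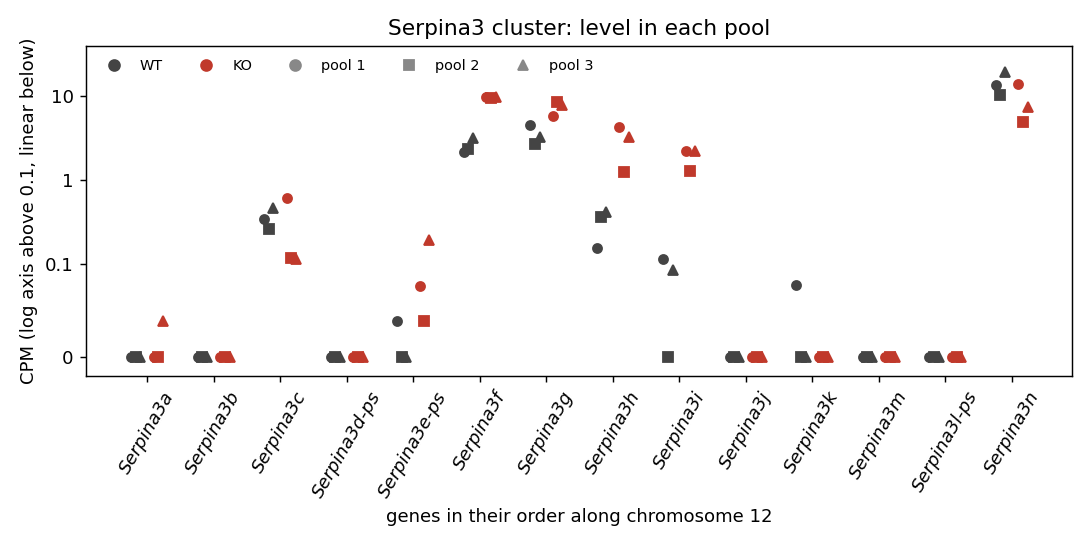
Level of each Serpina3 gene in CPM in the 6 pools, ordered along chromosome 12, with a log axis above 0.1 and a linear one below. Serpina3f, Serpina3g, Serpina3h and Serpina3i lie side by side and have all KO pools above all WT pools, while Serpina3n at the far end does not.

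Serpina3n, the most abundant Serpina3 gene in WT, went the other way. It was at 13.5, 10.5 and 19.5 CPM in WT against 13.9, 4.95 and 7.49 CPM in KO. KO pool 1 lay among the WT pools and the other 2 KO pools below them. The means were 14.5 ± 4.58 CPM in WT against 8.77 ± 4.59 CPM in KO (log2 fold change -0.73, SE 0.39). Without KO pool 1 the log2 fold change was -1.22, and without WT pool 3 or KO pool 2 it was -0.45 and -0.44. Of its windows of 100 bases 0.204% occurred in another gene, and of its windows of 50 bases 6.9%. Fibroblasts and vessel wall cells are known to express Serpina3n. The summed level of 11 fibroblast markers was 4710, 9830 and 15300 CPM in WT against 5560, 4860 and 4020 CPM in KO, so the genotypes overlapped. That of 8 mural cell markers was 2220, 2740 and 3640 CPM in WT against 1620, 1380 and 2080 CPM in KO, lower in all KO pools, KO pool 1 included. No gene of either list was at 0. Serpina3n came to 0.286%, 0.107% and 0.128% of the fibroblast sum in WT and to 0.249%, 0.102% and 0.186% in KO, so the genotypes overlapped in that share. They also overlapped in its share of the mural sum, at 0.384% to 0.605% in WT and 0.357% to 0.855% in KO. The part of these cells in the Serpina3n level was not tested.

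Lcn2 varied most within the genotypes, with an SD of 1.42 on the log2 scale against 0.202 to 0.858 for the other members. It was at 86.2, 37.3 and 11.1 CPM in WT against 70.2, 12.9 and 14.4 CPM in KO, a 7.78-fold span over the 6 pools. The means were 44.9 ± 38.1 and 32.5 ± 32.7 CPM, and the log2 fold change was -0.47 (SE 0.82). Its sign depended on 1 pool: without WT pool 1 it was 0.44, and without KO pool 1 it was -1.71. Hp followed a similar course, at 123, 81.5 and 48.5 CPM in WT against 181, 53.6 and 54.1 CPM in KO. The log2 fold change of Hp was 0.19 (SE 0.52), and it was -0.65 without KO pool 1, 0.57 without WT pool 1 and -0.09 without WT pool 3. For both genes the difference between genotypes was smaller than the spread between pools.

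Neutrophil markers moved with both genes. The summed level of 8 mature neutrophil markers (among them S100a8, S100a9 and the receptor genes Csf3r and Cxcr2) was 2210, 1110 and 700 CPM in WT against 3230, 871 and 912 CPM in KO. It was highest in the pools with the highest Hp. Hp came to 5.57%, 7.31% and 6.93% of that sum in WT and to 5.61%, 6.15% and 5.93% in KO, a 1.31-fold span, where Hp itself spanned 3.74-fold. Lcn2 came to 3.9%, 3.35% and 1.58% of the same sum in WT and to 2.18%, 1.48% and 1.58% in KO. Several markers of granule formation divided differently. Ltf, the lactoferrin gene, was at 160, 91.6 and 18.6 CPM in WT against 21, 14.3 and 25.7 CPM in KO. Camp and Ngp, which encode other granule proteins, were likewise highest in WT pools 1 and 2 and not in KO pool 1. Mmp8 and Prtn3 of the same list went another way. Mmp8 was at 42.4, 23 and 12.7 CPM in WT against 64.4, 10.6 and 11.5 CPM in KO. Prtn3 was at 2.04, 0.104 and 1.4 CPM in WT against 2.75, 2.99 and 0.66 CPM in KO. Lcn2 came to 16.3% to 21.4% of the summed granule list in the WT pools and to 56.9% in KO pool 1, 26.5% in KO pool 2 and 19% in KO pool 3. Elane and Ctsg, proteases of immature neutrophils, had at most 37 and 11 reads in any library. The part of neutrophils in the Lcn2 and Hp levels was not tested. Nor was that of the Y-linked difference, which sets the same WT pool 1 and KO pool 1 apart.

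**Figure D3:**
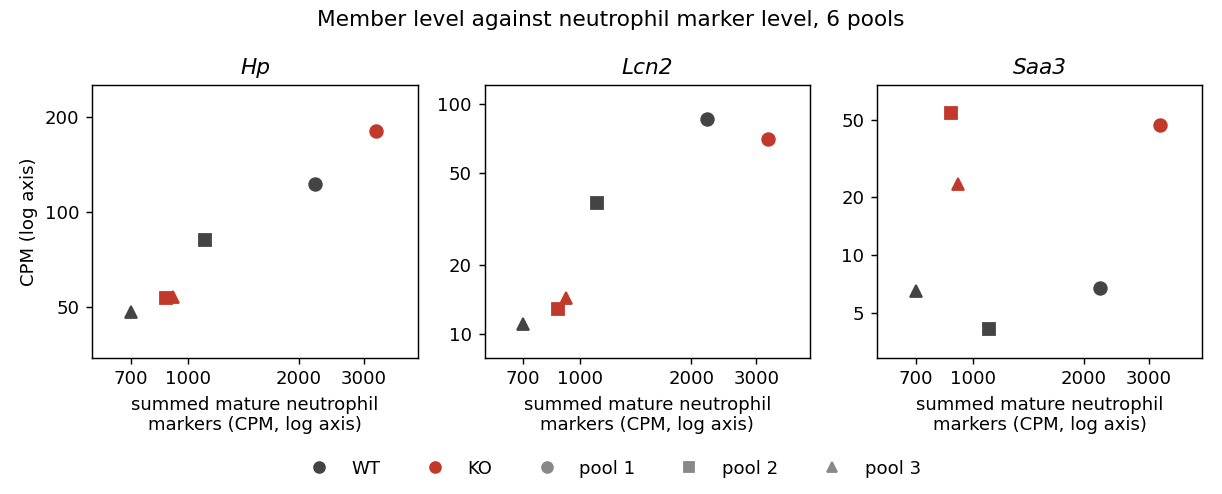
Level of Hp, Lcn2 and Saa3 in each of the 6 pools against the summed level of 8 mature neutrophil markers, all in CPM on log axes. Hp and Lcn2 are highest in the 2 pools with the highest marker sums (WT pool 1 and KO pool 1), and Saa3 is not.

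Saa3, Serpina3f and Serpina3g lay outside the neutrophil pattern, and markers of other cells moved with them. The summed level of 11 genes typical of serous cavity macrophages was 263 to 356 CPM in WT against 450 to 1120 CPM in KO. Of these, 4 were higher in all KO pools than in any WT pool, where 9.59% of all genes were. Their lipid-oxidising enzyme gene Alox15 was at 32.4, 22.9 and 34.3 CPM in WT against 131, 343 and 52.2 CPM in KO. Gata6, the defining transcription factor of these macrophages, was not higher, at 12.1 to 33.4 CPM in WT against 11.4 to 17.6 CPM in KO. Saa3 came to 1.56% to 2.04% of that sum in WT and 4.82% to 7.33% in KO. Of 12 resident macrophage markers, 4 were also higher in all KO pools than in any WT pool. Their summed level overlapped between genotypes, at 7010 to 12600 CPM in WT against 11900 to 13100 CPM in KO. As a share of that sum, Serpina3f was 0.0174% to 0.0383% in WT and 0.0752% to 0.0828% in KO, and Serpina3g 0.0357% to 0.0389% and 0.0489% to 0.0696%. Plasma cell markers summed to 293 to 343 CPM in WT against 682 to 1160 CPM in KO. Among them Igha was at 49.4 ± 34.7 CPM in WT against 525 ± 215 CPM in KO. Sdc1 of the same list went the other way, at 30.8 ± 0.879 CPM in WT against 23.2 ± 2.9 CPM in KO, lower in every KO pool. Serpina3f came to 0.748%, 0.684% and 1.09% of the plasma cell sum in WT and to 1.45%, 0.835% and 1.08% in KO, so in that share the genotypes overlapped. The 7 B cell markers summed to 1170 to 1350 CPM in WT against 1560 to 2320 CPM in KO, with no overlap, and 4 of them were higher in all KO pools. No gene of these 4 lists was at 0, and the part of these cells in the 3 genes was not tested. Adipocyte markers, another known source of Saa3 and Hp, summed to 1.51 to 2.65 CPM in WT against 0.738 to 1.99 CPM in KO, and liver markers to 7.62 to 14.5 and 6.01 to 8.25 CPM. Most of the liver sum was Ahsg, at 7.39, 8.39 and 14 CPM in WT against 7.68, 5.15 and 6.52 CPM in KO. Alb, the albumin gene, had at most 2 reads in any library.

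For each member, the tested genes with the closest pattern over the 6 pools were ranked by the root-mean-square difference of log2 levels, after each gene was centred on its own mean. For Saa3 they were the antibody segments Igkv3-10 (0.219) and Ighv1-72 (0.358) and Cd5l (0.361), a secreted macrophage protein at 9.12, 4.59 and 8.71 CPM in WT against 39.5, 89.8 and 19.5 CPM in KO. For Serpina3f they were Igkv14-100 (0.227), Igkv10-96 (0.253) and Derl3 (0.276), and for Serpina3g Spns3 (0.125), Dnase1l3 (0.131) and Cacna1s (0.167). The closest to Serpina3n were Rtn4rl2 (0.145), Myrip (0.172) and Peg10 (0.178). Those for Lcn2 were Wfdc21 (0.258), S100a8 (0.344) and Ly6g (0.36), the neutrophil surface marker, and those for Hp AC132455.2 (0.134), Csf3r (0.144) and Trem1 (0.15). Within the members, Serpina3f and Serpina3g (0.538) and Lcn2 and Hp (0.573) were the closest pairs, and Lcn2 and Saa3 the farthest (2). Igkv and Ighv segments are near-identical copies, so their counts are uncertain.

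Levels per kilobase of exon ranked the genes differently in the genotypes. In WT the order was Hp (52.5 ± 23.3 CPM per kilobase), Lcn2 (17.1 ± 14.5), Serpina3n (7.03 ± 2.22), Saa3 (2.23 ± 0.562), Serpina3g (1.66 ± 0.436) and Serpina3f (1.13 ± 0.24). Only Serpina3n and Saa3 were neighbours separated by more than their summed SDs. In KO it was Hp (59.9 ± 45.7), Saa3 (15.9 ± 6.19), Lcn2 (12.4 ± 12.5), Serpina3f (4.28 ± 0.0515), Serpina3n (4.25 ± 2.23) and Serpina3g (3.56 ± 0.7), with no neighbours separated in that way. Saa3 thus moved from the fourth place to the second.

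Of the 6 members, all of which passed the filter on low counts, 0 passed an adjusted p of 0.05 in edgeR, where 0.0127% of all genes did. At an unadjusted p under 0.05 there were 3 (Saa3, Serpina3f and Serpina3g), where 15.3% of genes lay. Limma-voom called 0 members. The same 3 passed with DESeq2 (5.05% of genes called), in edgeR without the filter on low counts (2.7%) and in edgeR without WT pool 1 (8.3%). Saa3 passed in edgeR without KO pool 3, and no member did when any of the other 4 pools was left out. Since the list was drawn up knowing this comparison, nothing is read from these counts.

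Genes of the Saa and Serpina3 clusters, other acute-phase genes, upstream signals and factors, receptors and target proteases were read from lists. The lists held 120 genes in all, of which 99 could be tested. In edgeR 0 passed over all genes. At an unadjusted p under 0.05 there were 5 higher and 11 lower in KO. Over all genes the same threshold gave 749 higher and 1660 lower, so lower values outnumbered higher ones there too. DESeq2 called 4 of the list genes higher and 6 lower, beside 168 and 594 of all genes, and limma-voom called 0 of the list genes. The 4 higher ones were Serpina3h, Serpina3i, C4b and Cfb, none of them from the lists of upstream signals and factors. The median log2 fold change of all 15707 genes tested was 0.0072, beside which the list medians are given.

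Other acute-phase genes did not move in one direction. Of 25 such genes 16 were tested, 4 with positive log2 fold changes, and the median was -0.15. The liver products Crp, Apcs, Orm2, Fgb and Fgg had 0 reads in all libraries. The complement gene C4b was at 621, 324 and 400 CPM in WT against 973, 935 and 757 CPM in KO (log2 fold change 0.99, SE 0.25, edgeR adjusted p = 0.193). Cfb, complement factor B, was at 0.489 ± 0.243 CPM in WT against 1.77 ± 0.191 CPM in KO (log2 fold change 1.84, edgeR adjusted p = 0.185). Every KO pool lay above every WT pool for both, and below every WT pool for 3 others of the list, Itih4, Lbp and Steap4. Over all genes these shares were 9.59% above and 10.1% below. C4b shares sequence with its neighbour C4a, so its count is uncertain. Itih4, an inhibitor-chain protein, had -0.87 (SE 0.24, edgeR adjusted p = 0.214). DESeq2 called C4b and Cfb higher and Itih4 lower (adjusted p = 0.00639, 0.0088 and 0.0292). Cfb had 12, 5 and 16 reads in the WT libraries and 42, 44 and 51 in the KO libraries. It passed the filter on low counts only through the KO libraries, where it is high, so its p-values are no support for the difference. C3, the central complement component, was at 540 ± 94.7 CPM in WT against 518 ± 92 CPM in KO.

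The inducing cytokines did not separate the genotypes. Il6 was at 117, 109 and 133 CPM in WT against 120, 69.6 and 71.9 CPM in KO, and KO pool 1 lay among the WT pools. Il1b was at 1640, 848 and 819 CPM in WT against 2150, 785 and 1030 CPM in KO, highest in pool 1 of either genotype. Among the 24 tested cytokine and receptor genes 11 had positive log2 fold changes (median -0.06). The 3 genes with the smallest p-values were receptor genes, all with lower values in KO. Il1r1, the interleukin-1 receptor, had -0.74 (SE 0.21, edgeR adjusted p = 0.221), Osmr, the oncostatin M receptor, -0.86 (SE 0.25, edgeR adjusted p = 0.223) and Il6st, the shared gp130 subunit, -0.41 (SE 0.14, edgeR adjusted p = 0.246). Each had every KO pool below every WT pool, as did Il17rc and 10.1% of all genes. So did the summed level of 9 endothelial markers, at 1940 to 3220 CPM in WT against 1060 to 1360 CPM in KO, with no gene at 0, and the part of these cells in the receptor levels was not tested. DESeq2 called Il1r1 and Osmr lower (adjusted p = 0.0429 and 0.0367).

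The transcription factors of the response gave no call in edgeR or DESeq2. All 12 STAT3 and C/EBP genes were tested, with a median of 0.12, and none had non-overlapping groups. Over all genes, every KO pool lay above every WT pool for 9.59% and below for 10.1%. Tyk2 (0.23), Cebpd (-0.30) and Cebpa (0.31) had the smallest p-values (edgeR adjusted p = 0.439 to 0.501). Socs3, the feedback inhibitor that STAT3 induces, was at 1350 ± 220 CPM in WT against 1580 ± 92.9 CPM in KO. The 16 NF-kB genes had a median of 0.14, with 14 positive, and again none with non-overlapping groups. Ikbkb (0.19), Irak4 (0.30) and Nfkbie (0.36) had the smallest p-values (edgeR adjusted p = 0.474 to 0.48). Glucocorticoids are known to induce several acute-phase genes together with cytokines. Among 8 glucocorticoid response genes the median was -0.14, and Sgk1 (-0.81, SE 0.21), Klf9 (-0.51, SE 0.15) and Zbtb16 (-0.66, SE 0.23) had every KO pool below every WT pool (edgeR adjusted p = 0.197 to 0.249). DESeq2 called Sgk1 and Klf9 lower (adjusted p = 0.0137 and 0.0426).

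Receptors and protease targets of the members gave no call in edgeR. Of 16 receptor and partner genes 11 were positive (median 0.19). Cd163, the haptoglobin-haemoglobin receptor, was at 1010 ± 339 CPM in WT against 1140 ± 46.9 CPM in KO. Slc22a17, a lipocalin-2 receptor, was at 13.5 ± 3.05 and 13.4 ± 0.796 CPM. Fpr2, a receptor that serum amyloid A engages, was at 11.1 ± 4.81 and 12.2 ± 5.46 CPM. Cd36, a scavenger receptor, had -0.41 (SE 0.14, edgeR adjusted p = 0.253), Ly96, the Tlr4 partner, 0.48 (SE 0.21, edgeR adjusted p = 0.33) and Lrp1 -0.44 (SE 0.22, edgeR adjusted p = 0.394). DESeq2 called Cd36 lower (adjusted p = 0.0173). Of 7 proteases 5 were tested (median -0.22), with Ctsb, a lysosomal cathepsin, at 2670 ± 820 CPM in WT against 3750 ± 403 CPM in KO (0.49, SE 0.26, edgeR adjusted p = 0.425), Ctsl at -0.22 and Prtn3 at 0.83.

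**Figure D4:**
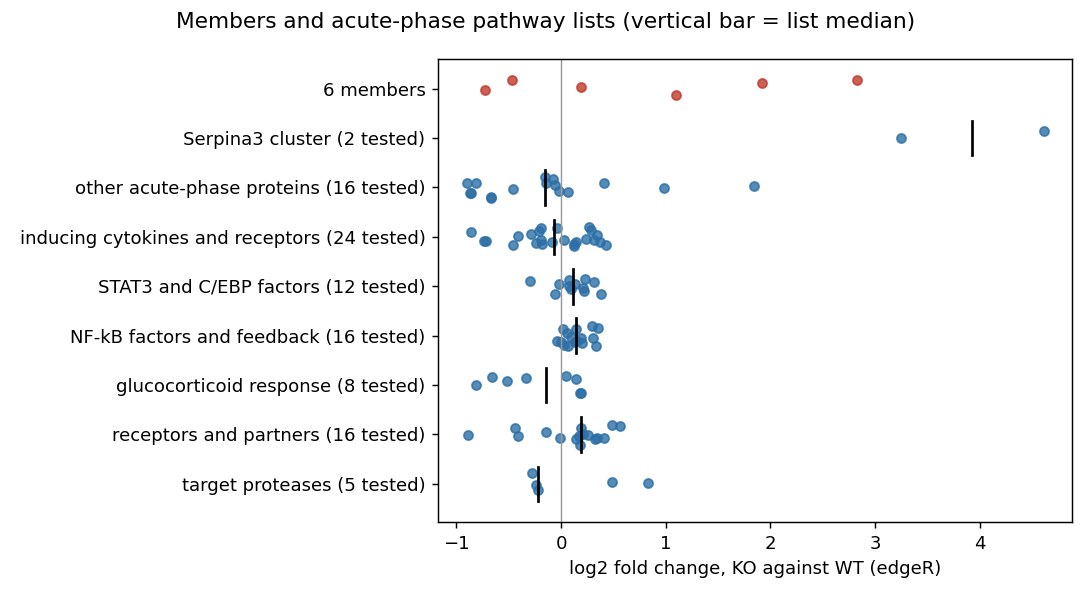
Log2 fold change, KO against WT, of the 6 members and of each tested gene of the pathway lists, with a vertical bar at each list's median. Serpina3h and Serpina3i lie at 3.24 and 4.61, and the medians of the other lists lie between -0.22 and 0.19.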

How the data were processed

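RNA from Cd11b-enriched non-myocyte heart cells was isolated with an RNeasy Mini kit, and, per the labels' protocols, libraries came from a NEBNext Ultra II Directional kit. The authors deposited raw counts, 1 whole number per Ensembl gene and library. The submitters' processing notes name STAR, HTSeq, DESeq2 and GRCm38. Versions, annotation release, strand setting and read length: not given in the sources used here. Counters that name no gene (reads outside genes 5.9% to 8.62%, in several genes 1.49% to 1.72%, at several places 7.58% to 8.67% of all counted reads) entered neither library sizes nor tests. Reads placed at several loci went to no gene, so alike gene copies can be undercounted.

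Of 55487 identifiers 55141 had a symbol. Genes were kept with filterByExpr (minimum count 10), scaled by TMM and tested over 15707 genes with edgeR 4.0.16 (glmQLFit, glmQLFTest, R 4.3.3), KO against WT with no other term, two-sided, with Benjamini-Hochberg adjustment at 0.05. Levels are TMM-scaled CPM, as mean ± SD over 3 pools, and SE is the size of the log2 fold change divided by the root of F. P-values weigh the difference between genotypes against the spread between pools, which edgeR estimates partly from other genes. Each pool mixes 5 to 6 hearts, so the spread between single animals is not seen. Patterns were compared on log2 CPM with a prior count of 2. Alternatives used DESeq2 1.42.0, limma 3.58.1 (voom), other scalings and filters, the replicate number as a block, each pool left out and, chosen after seeing the data, a Y-linked expression covariate. KO against WT was simulated for 15707 genes. Every gene was given the same coefficient of variation between pools (0.239), and no pool was set apart. The test found 38 of 98 genes with a simulated 2-fold change and 95 of 97 with a 4-fold change, and called 3 unchanged genes. These counts may not hold for genes with a wider spread between pools.

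The members, lists and rules were chosen with earlier results of these data known. The rule named all members and tested cluster genes, and in each other pathway list up to 3 genes of mean CPM 1 or more, by smallest p-value. Other list genes were named after their values were seen, for their known role. Library pairs differed beyond counting noise (chi-square per degree of freedom of at least 38), so all 6 were kept apart.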

Additional observations from a re-analysis of the deposited data

How the results depend on the processing

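The count of genes past the threshold was 2 in edgeR with all pools, 762 with DESeq2, 782 without the filter on low counts and 1 with limma-voom, and it ranged from 1 to 1338 when 1 pool was left out, with the highest count without WT pool 1. For the members the count was 0, and it was 3 with DESeq2, 3 without the filter, and 0 to 3 when 1 pool was left out. For the pathway lists it was 0, and it was 10 with DESeq2, 9 without the filter, and 0 to 9 when 1 pool was left out. The cause was not tested. Other scalings and a mean CPM of at least 5 left all 3 counts as they were. With pool numbers as a replicate block, edgeR called 3 genes, 0 members and 0 pathway genes. Same-numbered pools did not deviate together (correlations of 0.0968, -0.16 and 0.00601 across genes), and only pool 1 of WT correlated best with its own number. With a Y-linked covariate, chosen after seeing the data, 3 genes, 0 members and 0 pathway genes passed, and the log2 fold changes of Saa3, Serpina3f, Serpina3g, Serpina3n, Lcn2 and Hp were 2.84, 1.93, 1.10, -0.82, -0.60 and 0.02. Over all alternatives Saa3 lay between 2.59 and 3.11, Serpina3f between 1.82 and 2.11 and Serpina3g between 0.94 and 1.33. With 3 pools a group, most simulated 2-fold changes were missed. Genes with fewer than about 10 reads a library, such as Saa1 and Saa2, could not be tested.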
